A study of Rattus norvegicus with 8 samples.

Results

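The Cyp2c family of cytochrome P450 genes was followed in the liver of weanling male rats whose mothers had received a contaminant mixture, 0.5MAhR. The members were 8 rat genes, Cyp2c6v1, Cyp2c7, Cyp2c11, Cyp2c12, Cyp2c13, Cyp2c22, Cyp2c23 and Cyp2c24, and every probe whose accession was named as one of them was taken. This gave 9 probes for 7 genes, out of 30367 probes on the array and 15168 genes with a symbol among them. Cyp2c7 had 3 probes, Cyp2c24 had no probe named here, and each of the other 6 genes had 1 probe. A probe was tested where, in control or in mixture, 3 or all 4 arrays marked its Cy5 signal as well above background. Of the 9 probes 8 passed, from 6 genes, and the Cyp2c13 probe did not.

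Both groups were 21-day-old male Sprague-Dawley rats raised by their own dams, which were dosed during gestation and lactation. Control dams received corn oil. Mixture dams received, in corn oil, 0.5 mg/kg/day of a blend of organochlorine pesticides, polychlorinated biphenyls (PCBs) and methyl mercury, and in addition non-ortho-PCBs, dibenzodioxins and dibenzofurans, for a total of 6.3 ng/kg/day of dioxin toxic equivalents. These planar compounds are agonists of the aryl hydrocarbon receptor (AhR). RNA of 2 pups was pooled at random for each array, 4 arrays a group, so that a value describes a pool and not a pup. Litter membership, not given in the sources used here, was left aside, and p-values measure the spread between pools. On each array the liver pool was labelled with Cy5, and Cy3 marked a reference made of 14 rat cell lines. The comparison asks how the offspring's Cyp2c transcripts differ after exposure to the mixture with added AhR agonists.

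Enzymes of the Cyp2c family oxidise steroids, fatty acids, retinoids and drugs in the endoplasmic reticulum of hepatocytes, with electrons from cytochrome P450 reductase and cytochrome b5. In the rat several members are set by growth hormone patterns after puberty, Cyp2c11 being the main form of the adult male and Cyp2c12 that of the adult female. Some members also respond to foreign chemicals through the nuclear receptors CAR and PXR, which bind repeats of short half-sites together with the retinoid X receptor.

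The genes lie on chromosome 1 of the rat. In the RefSeq gene order of assembly GRCr8, Cyp2c11, Cyp2c24, Cyp2c6v1, Cyp2c7, Cyp2c12, Cyp2c13 and Cyp2c22 follow each other with at most 12 other protein-coding genes between neighbours, and Cyp2c23 lies 51 protein-coding genes beyond Cyp2c22. RefSeq promoter sequence of GRCr8 was found for 7 of the 8 members. The 250 bases before the transcription start are shown for Cyp2c7, Cyp2c11, Cyp2c12 and Cyp2c22, the members of the cluster that had both a promoter sequence and a tested probe, so that they can be set side by side. The Cyp2c7 stretch is chr1:247966144-247966393 and the Cyp2c11 stretch chr1:246174966-246175215, both on the plus strand. The Cyp2c12 stretch is chr1:248677035-248677284 and the Cyp2c22 stretch chr1:248980768-248981017, both on the minus strand. Sequences run 5′ to 3′ on the gene's strand, and capitals mark, on either strand, the half-site AGGTCA, its variant written AGTTCA, or the box TATAAAA (the capitals in Cyp2c22 are the half-site read from the opposite strand).
Cyp2c7: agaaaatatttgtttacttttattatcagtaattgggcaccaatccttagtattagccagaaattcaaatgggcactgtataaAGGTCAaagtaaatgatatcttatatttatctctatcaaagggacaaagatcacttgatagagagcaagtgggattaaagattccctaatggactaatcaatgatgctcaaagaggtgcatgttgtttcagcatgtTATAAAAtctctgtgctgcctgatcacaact
Cyp2c11: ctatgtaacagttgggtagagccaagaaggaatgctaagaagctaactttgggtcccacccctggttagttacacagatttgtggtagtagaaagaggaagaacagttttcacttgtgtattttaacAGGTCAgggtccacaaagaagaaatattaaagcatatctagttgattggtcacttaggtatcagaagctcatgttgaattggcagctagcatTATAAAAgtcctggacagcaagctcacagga
Cyp2c12: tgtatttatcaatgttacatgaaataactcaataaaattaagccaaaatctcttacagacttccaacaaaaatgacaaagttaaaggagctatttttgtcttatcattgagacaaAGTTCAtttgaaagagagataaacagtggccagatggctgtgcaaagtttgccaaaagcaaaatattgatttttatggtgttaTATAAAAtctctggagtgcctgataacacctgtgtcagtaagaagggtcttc
Cyp2c22: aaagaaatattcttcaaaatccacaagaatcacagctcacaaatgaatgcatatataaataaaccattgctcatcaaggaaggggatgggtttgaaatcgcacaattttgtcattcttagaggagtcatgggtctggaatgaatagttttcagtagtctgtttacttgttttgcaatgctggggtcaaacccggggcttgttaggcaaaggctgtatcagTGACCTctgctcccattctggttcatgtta

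The letters AGGTCA occurred in 3 of the 7 promoters, those of Cyp2c7, Cyp2c11 and Cyp2c22, against 14.06% of the 33469 rat promoters of the same length. In Cyp2c7 the match began 167 bases before the start and in Cyp2c11 123 bases before it. AGTTCA occurred in Cyp2c12 and Cyp2c13, against 12.22% of promoters. TATAAAA, the letters of a TATA box, occurred in 5 of the 7, all but Cyp2c22 and Cyp2c23, against 5.378%. In Cyp2c7 and Cyp2c11 it lay at the same distance, 31 bases before the start. GCGTG, the core of an AhR response element, occurred in none of the 7 windows, against 25.89% of promoters, and TTCNNNGAA, the letters of a STAT5 site, in none, against 7.667%. Both strands of each window were searched, and no motif matched inside another. In pairwise alignments the Cyp2c11 and Cyp2c24 promoters had the highest identity, 72.4% of their 250 bases, followed by Cyp2c12 and Cyp2c13 with 71.2%. Cyp2c7 shared 54.0% to 64.8% of the window with each of the others. A match in these letters is a description of the window and was not tested as a binding site.

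Arrays were of like quality, with 42.9% to 49.2% of spots well above background in Cy5 and none saturated. The position suffix in the file headers gave 2 numbers for each array, called slide column and slide row here. Which direction on the slide each number follows was not stated. In these terms the arrays lay in 2 columns of 1 slide, each with 2 control and 2 mixture arrays. The columns stood apart: log2 ratios correlated across probes with r of 0.980 to 0.991 within a column and 0.936 to 0.961 between columns. Differences are therefore given with slide column fitted as well, and within each column. Liver identity held, since all 10 hepatocyte markers, among them Alb and Ttr, were well above background in both groups. Mixture replicates 1 and 4 also carried signal of exocrine pancreas markers. The net Cy5 signal of Prss1, a trypsinogen gene, was 563 and 1721 intensity units there. On the other 6 arrays it was between -1 and 5.25. The markers differed: Cela1 and Pnlip were well above background on mixture replicate 4 only. Cpa1 was so on mixture replicates 1 and 4 and also on control replicate 5, with a net Cy5 of 43 there. Over the 4 pancreas markers the summed Cy5 signal ran from 257 to 296 in control and from 252 to 2515 in mixture arrays, and its part in the results was not tested. Log ratio differences of the tested members are given without these arrays as well. Without slide column in the fit, 1 probe of 11406 differed in the log ratio past an adjusted p of 0.05, that of Cyp1a1, the classical AhR target, 4.04 higher on the log2 scale. That call was lost without control replicate 5 or mixture replicate 2 or 3, and without mixture replicates 1 and 4 together (4.16, adjusted p = 0.0757), and held in each case with slide column fitted (adjusted p of 0.0109 without replicates 1 and 4). No probe, Cyp1a1 included, passed in log ratios taken from the processed signals of the scanner software, without slide column in the fit.

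None of the 8 tested Cyp2c probes passed that threshold in the log ratio, where the share over all probes was 0.00877%. At an unadjusted p under 0.05, 4 of the 8 did, against 1.52% of all tested probes. The groups did not overlap, with mixture higher, for 4 of the 8, against 0.798%. These 4 were the 3 Cyp2c7 probes, which measure 1 gene, and the Cyp2c11 probe. The latter was tested only because it was bright enough in the mixture group, so the filter itself favoured a difference and it gives no separate support. The mixture mean was higher for 6 of the 8, against 46.9% of all tested probes, and the median difference was 0.66, against -0.0076 over all. This count and this median also include Cyp2c11 and take Cyp2c7 with 3 probes. They are therefore no separate measure of a shift of the family. With slide column fitted, 2 of the 8 passed, both for Cyp2c7, against 0.0789%. Slide rows, each with 1 control and 1 mixture array from different columns, were fitted in place of columns, and then none of the 8 passed in the log ratio or in Cy5, nor did any other probe.

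**Figure D1:**
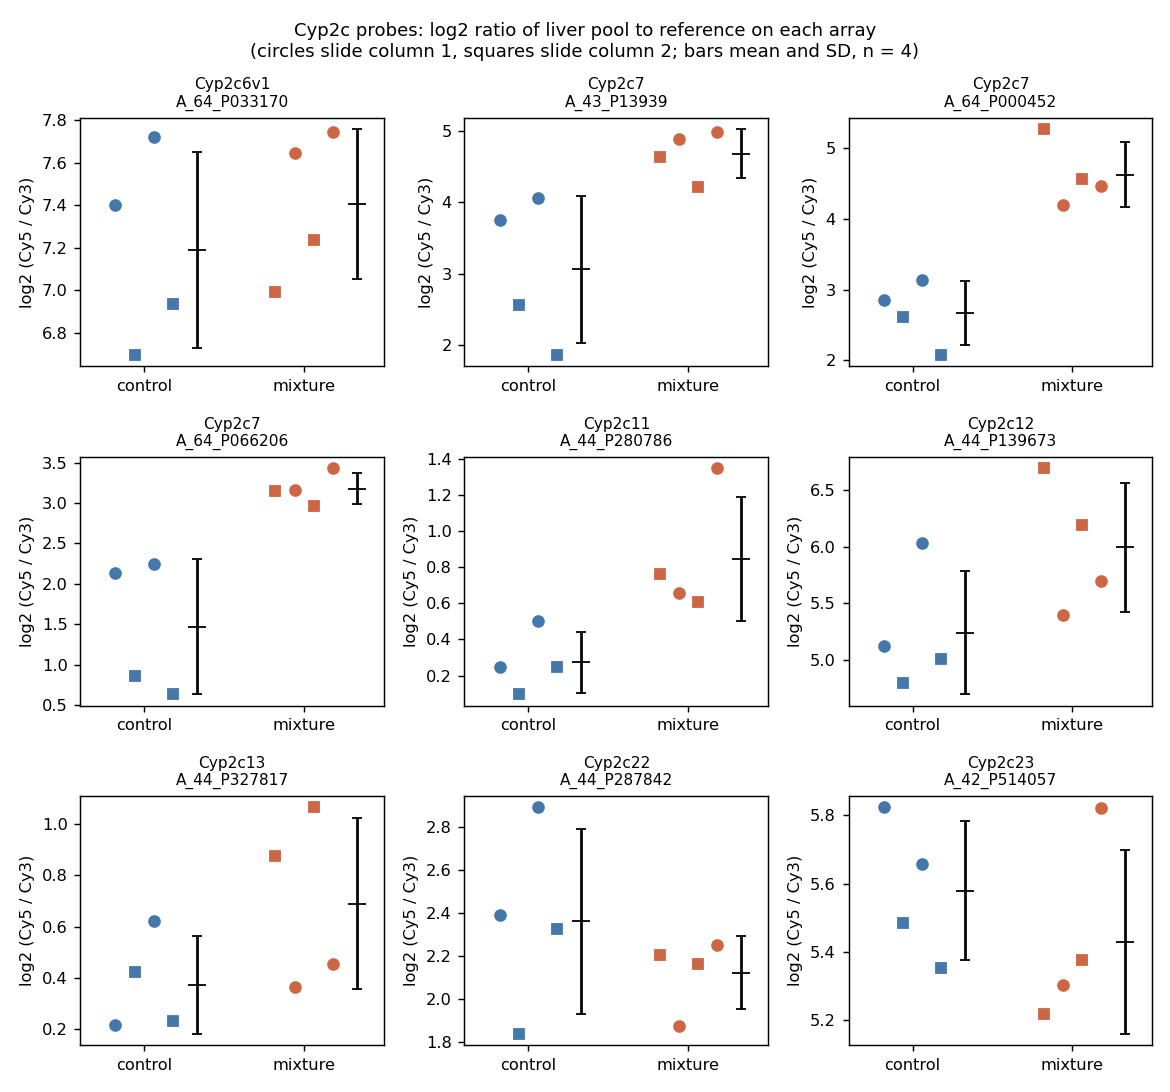
Log2 ratio of liver Cy5 to reference Cy3 on each array for the 9 Cyp2c probes, control in blue and mixture in orange, with circles for slide column 1, squares for column 2, and the mean and SD of 4 arrays beside each group. For the 3 Cyp2c7 probes and Cyp2c11 every mixture array lies above every control array, and for the other 5 probes the groups overlap; the vertical scales differ between panels.

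Cyp2c7, which oxidises retinoic acid and in adult rats is more abundant in females, had the highest differences of the family. For probe A_64_P000452 the log2 ratios were 2.86, 2.62, 3.13 and 2.07 in control replicates 5 to 8 and 5.28, 4.20, 4.57 and 4.47 in mixture replicates 1 to 4. The lowest mixture pool thus lay above the highest control pool by more than 1 log2 unit, and mixture replicate 1 was the highest. The mean was 2.67 ± 0.45 (SD, n = 4) in control and 4.63 ± 0.46 in mixture, a difference of 1.96 (SE 0.28, 95% interval 1.33 to 2.59), or 3.89-fold. It was the third highest difference of the 11406 tested probes. Its adjusted p was 0.359, and 0.0426 with slide column fitted.

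The other Cyp2c7 probes gave the same direction in every pool. For A_64_P066206 the log2 ratios were 2.13, 0.86, 2.25 and 0.64 in control and 3.15, 3.16, 2.97 and 3.43 in mixture, so that the mixture pools lay close together and the control pools did not. The difference was 1.71 (SE 0.36, 95% interval 0.88 to 2.53), with an adjusted p of 1.00 and of 0.0304 with slide column fitted. For A_43_P13939 they were 3.76, 2.55, 4.07 and 1.85 in control and 4.65, 4.90, 4.21 and 4.99 in mixture. Here the highest control pool, replicate 7, came close to the lowest mixture pool, replicate 3. The difference was 1.63 (SE 0.46), and the adjusted p was 1.00 and, with slide column fitted, 0.101.

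The order of the control pools followed the slide. Control replicates 5 and 7, in column 1, had higher Cyp2c7 ratios than control replicates 6 and 8, in column 2, with each of the 3 probes. Within column 1 the Cyp2c7 differences were 1.34, 1.104 and 1.03 for A_64_P000452, A_64_P066206 and A_43_P13939, and within column 2 they were 2.58, 2.31 and 2.23. Mixture was thus higher in each column with each probe, by 1.24, 1.20 and 1.20 more in column 2. That change between the columns had an unadjusted p of 0.00839, 0.000191 and 0.00659 in the same order, and adjusted p-values of 0.925, 0.592 and 0.925.

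The Cyp2c7 calls were lost without most single arrays. With slide column fitted and 1 array left out, A_64_P000452 and A_64_P066206 passed again without mixture replicate 2 or control replicate 7, and neither passed without any other single array, control replicates 5, 6 and 8 and mixture replicates 1, 3 and 4. Without control replicate 7 A_43_P13939 passed as well. The differences themselves stayed between 1.23 and 2.14 over the 3 probes whichever array was left out. Without mixture replicates 1 and 4, the arrays with pancreas marker signal, they were 1.72, 1.59 and 1.498, with adjusted p of 0.183, 0.229 and 0.297 with slide column fitted.

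**Figure D2:**
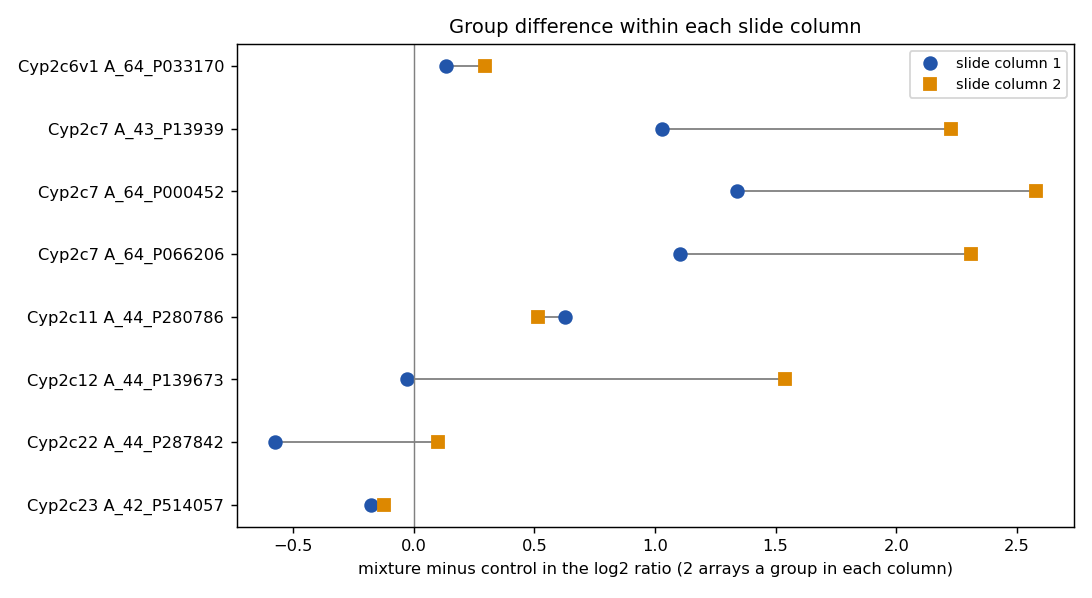
Mixture minus control difference in the log2 ratio within slide column 1 (circles) and column 2 (squares), 2 arrays a group in each column, for the 8 tested probes. The 3 Cyp2c7 probes are above 0 in both columns and further above it in column 2, while Cyp2c12 is at -0.029 in column 1 and 1.54 in column 2.

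Because a ratio also moves with the reference, each channel was compared alone. In Cy5 the Cyp2c7 differences were 1.80 for A_64_P000452, 1.20 for A_64_P066206 and 1.90 for A_43_P13939, or 3.48-, 2.30- and 3.73-fold. For A_64_P066206 the log2 difference was 2.27, in place of 1.20, when processed Cy5 signals scaled to the 75th percentile were used. Mixture replicate 1 stood at 10.65 for A_64_P000452 and the other mixture pools between 9.43 and 9.60, against 7.40 to 8.36 in control. With slide column fitted A_64_P066206 passed in Cy5, with an adjusted p of 0.0416, and the others had 0.0687 and 0.0647. Of the 8 single arrays left out in turn, it kept that call only without mixture replicate 1 (adjusted p = 0.0452), and the highest adjusted p was 0.163. In Cy3, where the same reference was on every array, A_43_P13939 was 0.40 higher in the mixture arrays (SE 0.10, adjusted p = 1.00), with all 4 mixture arrays, 7.02 to 7.54, above the control arrays, 6.74 to 6.84. The other 2 Cyp2c7 probes, A_64_P000452 and A_64_P066206, differed by 0.15 and 0.066 in Cy3 and their groups overlapped. A_64_P066206 was well above background in Cy3 on no array, with net signals of 12 to 22 intensity units in control and 16 to 32 in mixture. Its Cy3 difference therefore says little about the reference.

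Cyp2c6v1, a member found in both sexes and known to be induced by phenobarbital, looked different in the ratio and in Cy5 alone. Its log2 ratios were 7.40, 6.69, 7.72 and 6.94 in control replicates 5 to 8 and 6.99, 7.65, 7.24 and 7.75 in mixture replicates 1 to 4. The groups overlapped, and pools of column 1 were the higher ones in each group. The difference was 0.22 (SE 0.25, 95% interval -0.36 to 0.79, adjusted p = 1.00), and it was -0.23 when taken from the processed signals of the scanner. Leaving out control replicate 6 gave 0.052, leaving out control replicate 7 gave 0.39, and leaving out mixture replicates 1 and 4 gave 0.25.

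In Cy5 alone its values were 13.28, 12.69, 13.43 and 12.71 in control and 13.73, 13.99, 13.87 and 14.41 in mixture, so that the groups did not overlap. The difference was 0.97 (SE 0.21), or 1.96-fold, with an adjusted p of 1.00 and, with slide column fitted, 0.00885. With slide column fitted the call held when any 1 array was removed (differences of 0.91 to 1.08, adjusted p between 0.00148 and 0.0493), but not without mixture replicates 1 and 4 together (0.90, adjusted p = 0.169). Within column 1 the Cy5 difference was 0.85 and within column 2 it was 1.099.

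The reference channel of this probe differed as well. In Cy3 the values were 7.22, 7.20, 7.01 and 7.01 in control and 7.89, 7.53, 7.83 and 7.89 in mixture arrays. All mixture arrays were higher, although the labels give the same reference RNA for all. The Cy3 difference was 0.67 (SE 0.089, adjusted p = 0.142), the fourth highest of all tested probes, and it passed without mixture replicate 2 (adjusted p = 0.0128). The net signals were 82 to 109 intensity units in Cy3 against 5617 to 11744 in Cy5 for control arrays, and 150 to 209 against 10509 to 26819 for mixture arrays. Both channels were thus higher in the mixture group, but they did not rise together on every array. Control replicate 7 had the highest net Cy5 of its group, 11744, with the lowest net Cy3, 82. Mixture replicate 4 had the highest of its group in both, 26819 and 209. The part of Cy3 in the small ratio difference was not tested.

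**Figure D3:**
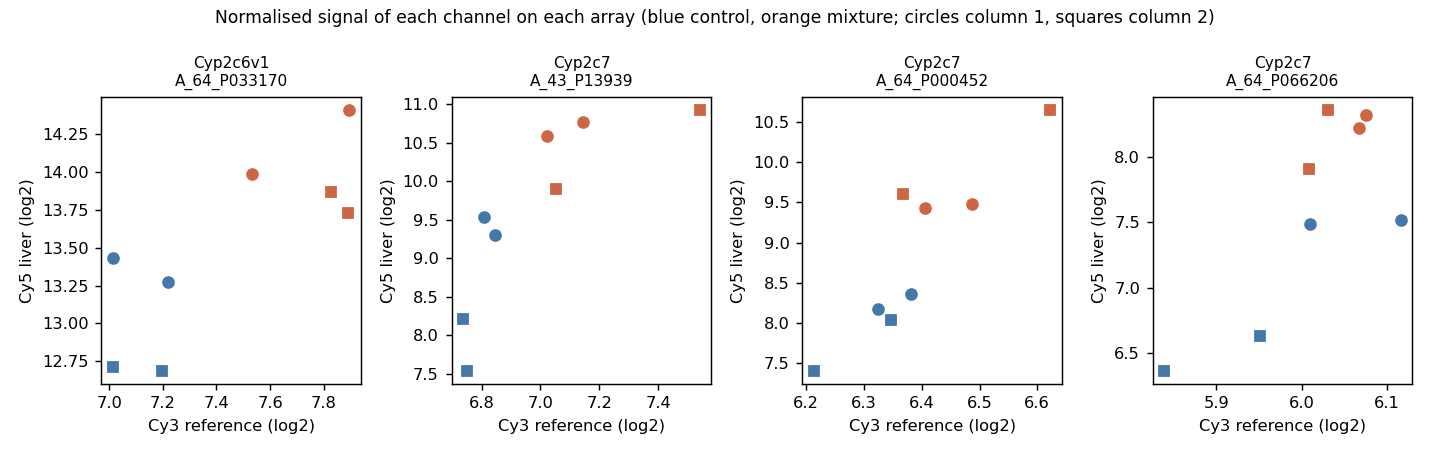
Normalised Cy5 signal of the liver pool against Cy3 signal of the reference on each array (log2) for Cyp2c6v1 and the 3 Cyp2c7 probes, control in blue, mixture in orange, circles for slide column 1 and squares for column 2. For Cyp2c6v1 and A_43_P13939 the mixture arrays lie above and to the right of all control arrays. For A_64_P066206 the groups separate in Cy5 and overlap in Cy3, where the probe was well above background on no array.

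Over the family, no tested probe passed in Cy5 alone without slide column, against 0.00877% of all probes, while 5 of the 8 had an unadjusted p under 0.05, against 1.77%. Those 5, Cyp2c6v1, the 3 Cyp2c7 probes and Cyp2c11, were also the ones whose groups did not overlap with mixture higher, against 0.921%. Among them 3 probes measure 1 gene, and Cyp2c11 was tested only through its mixture arrays, so the filter favoured its difference and it gives no separate support. With slide column fitted 2 of the 8 passed, Cyp2c6v1 and A_64_P066206 of Cyp2c7, against 0.149%. In Cy3 none of the 8 passed with or without slide column, against 0.00877% in each case. An unadjusted p under 0.05 was reached by 3 of the 8 in Cy3, against 1.17%, and 2 did not overlap with mixture higher, against 0.535%. The Cy3 mean was higher in mixture for all 8 probes, against 49.0% of all tested probes, with a median difference of 0.058 against -0.00083. Of these probes 3 measure 1 gene. Cyp2c11, Cyp2c12, Cyp2c22 and A_64_P066206 of Cyp2c7 were well above background in Cy3 on no array. Their Cy3 differences are thus values near the floor, and their log ratios divide by a Cy3 signal near background.

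**Figure D4:**
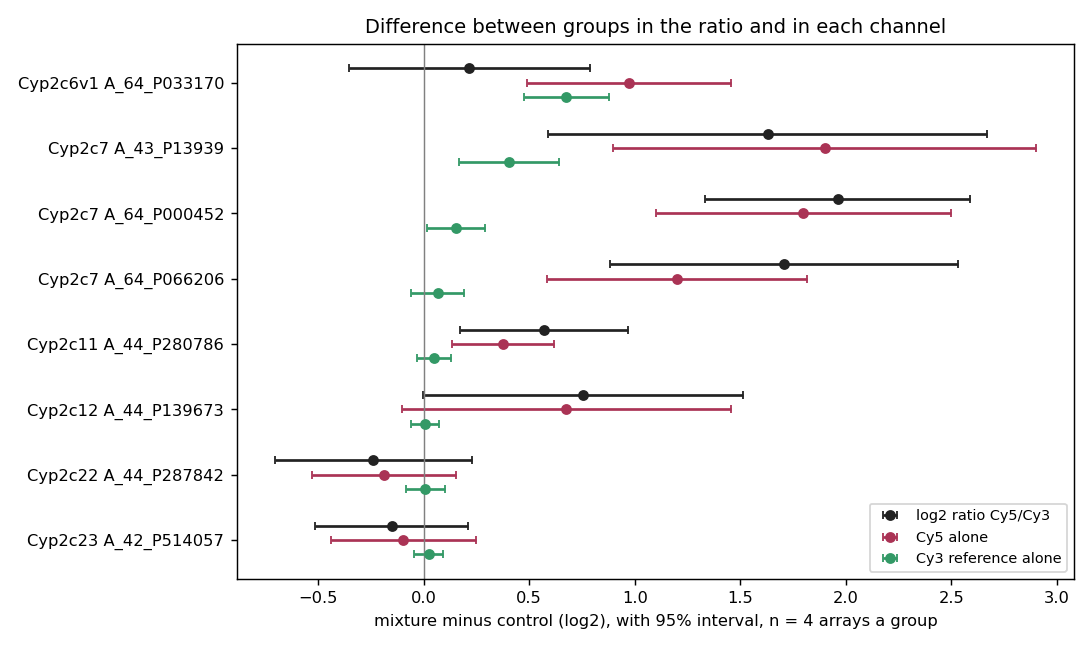
Mixture minus control difference with its 95% interval (log2, 4 arrays a group, slide column not fitted) for the 8 tested probes in the log2 ratio (black), Cy5 alone (red) and Cy3 alone (green). Cyp2c6v1 is at 0.97 in Cy5 and 0.67 in Cy3 and its ratio interval spans 0, while the Cyp2c7 intervals lie above 0 in the ratio and in Cy5.

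Cyp2c11, the male-specific steroid hydroxylase of adult rats, was at the edge of detection before puberty. Its Cy5 signal was well above background on none of the 4 control arrays and on all 4 mixture arrays, with net signals of 7.25 to 22 intensity units in control and 26.5 to 66.5 in mixture. The log2 ratios were 0.25, 0.10, 0.50 and 0.25 in control and 0.76, 0.66, 0.61 and 1.35 in mixture, without overlap. Mixture replicate 4 was the highest. The difference was 0.57 (SE 0.18, adjusted p = 1.00, and 0.393 with slide column fitted). Control livers gave only a bound. In Cy5 after loess and Aquantile normalisation the mean of the mixture pools, 6.78, was 1.31-fold above the control bound of 6.39. The measured control mean was 6.28. This fold compares means of 4 pools without sampling error, for a probe tested only through its mixture arrays. It is open to dye bias, because no dye was swapped, and holds for that normalisation only. In the quantile-normalised Cy5 signals used elsewhere the measured means were 6.23 and 6.61, or 1.30-fold. There the log2 difference was 0.37 (95% interval 0.13 to 0.62), and 0.25 without mixture replicates 1 and 4. The size of the log ratio difference depended on the processing, at 0.55 without background correction, 1.94 from the processed signals of the scanner software, 0.91 at a normexp offset of 16 and 0.32 with median centring. Without mixture replicates 1 and 4 the log ratio difference was 0.36.

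Cyp2c12, the female-specific steroid sulfate hydroxylase of adult rats, was well above background on all 8 arrays of these young males. Its log2 ratios were 5.12, 4.80, 6.03 and 5.01 in control and 6.69, 5.39, 6.19 and 5.70 in mixture. Control replicate 7 lay among the mixture pools, and the other 3 control pools lay below them all. The difference was 0.76 (SE 0.33, 95% interval -0.0040 to 1.51, unadjusted p = 0.0510, adjusted p = 1.00). It was -0.029 within column 1 and 1.54 within column 2, a change between the columns of 1.57 (unadjusted p = 0.00460, adjusted p = 0.925). Leaving out control replicate 7 gave 1.02, and leaving out mixture replicate 1 gave 0.52. With mixture replicates 1 and 4 both left out it was 0.55. In Cy5 alone the difference was 0.68, 0.39 without mixture replicate 1 and 0.50 without mixture replicates 1 and 4.

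Cyp2c13, another male form of the adult, was well above background on control replicates 6 and 7 and mixture replicates 1 and 3 and was not tested. Its net Cy5 signals were 8.0, 16.5, 24.5 and 10.5 intensity units in control and 32.5, 13.0, 44.75 and 18.25 in mixture. The groups overlapped, and mixture replicates 1 and 3, both in column 2, were the 2 highest.

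The 2 remaining members had lower means in mixture livers, within the spread of the pools. Cyp2c22, a retinoic acid hydroxylase of liver, had log2 ratios of 2.39, 1.84, 2.89 and 2.33 in control and 2.20, 1.88, 2.16 and 2.25 in mixture. All mixture pools lay inside the control range. The difference was -0.24 (SE 0.21, 95% interval -0.71 to 0.23), at -0.58 within column 1 and 0.099 within column 2. Leaving out control replicate 7 gave -0.063, leaving out control replicate 6 gave -0.41, and leaving out mixture replicates 1 and 4 gave -0.34.

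Cyp2c23, an epoxygenase of arachidonic acid known best from kidney, was measured by 10 spots an array, more than any other member. Its log2 ratios were 5.82, 5.48, 5.66 and 5.35 in control and 5.22, 5.30, 5.37 and 5.82 in mixture. Mixture replicate 4 lay with the highest control pool, and mixture replicates 1 and 2 lay below every control pool. The difference was -0.15 (SE 0.16, 95% interval -0.51 to 0.21), with -0.18 and -0.12 within the columns. Leaving out control replicate 5 gave -0.069, leaving out mixture replicate 4 gave -0.28, and leaving out mixture replicates 1 and 4 gave -0.24. The intervals of Cyp2c22 and Cyp2c23 leave out a difference of the size seen for Cyp2c7, and no test between genes was made.

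The family varied more among pools than most probes. Over the 8 tested probes the median SD of the log2 ratio was 0.46 in control and 0.34 in mixture, against 0.21 and 0.22 over all tested probes. A_43_P13939 of Cyp2c7 had the widest spread, with an SD of 1.04 in control and 0.35 in mixture. Cyp2c11 in control had the narrowest, 0.168, where it was well above background on no array. That SD and the control SD of Cyp2c23, 0.205, lay below the median of all tested probes, 0.207. In mixture Cyp2c22, 0.169, and A_64_P066206, 0.191, lay below it, 0.218. After the mean of each slide column over its 4 arrays was subtracted, the medians were 0.35 and 0.33, against 0.11 and 0.10. That mean spans both groups, so a group difference that changed between the columns adds to these SDs. The mixture SD of A_64_P066206 of Cyp2c7 went from 0.19 to 0.37. In Cy5 alone the medians as measured were 0.40 and 0.28, against 0.19 and 0.19, and after subtraction 0.25 and 0.27, against 0.094 and 0.087. In the log ratio the SD of Cyp2c6v1 went from 0.46 to 0.17 in control and from 0.35 to 0.12 in mixture. Cyp2c12 had 0.55 and 0.57 as measured and 0.59 and 0.51 after the subtraction.

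**Figure D5:**
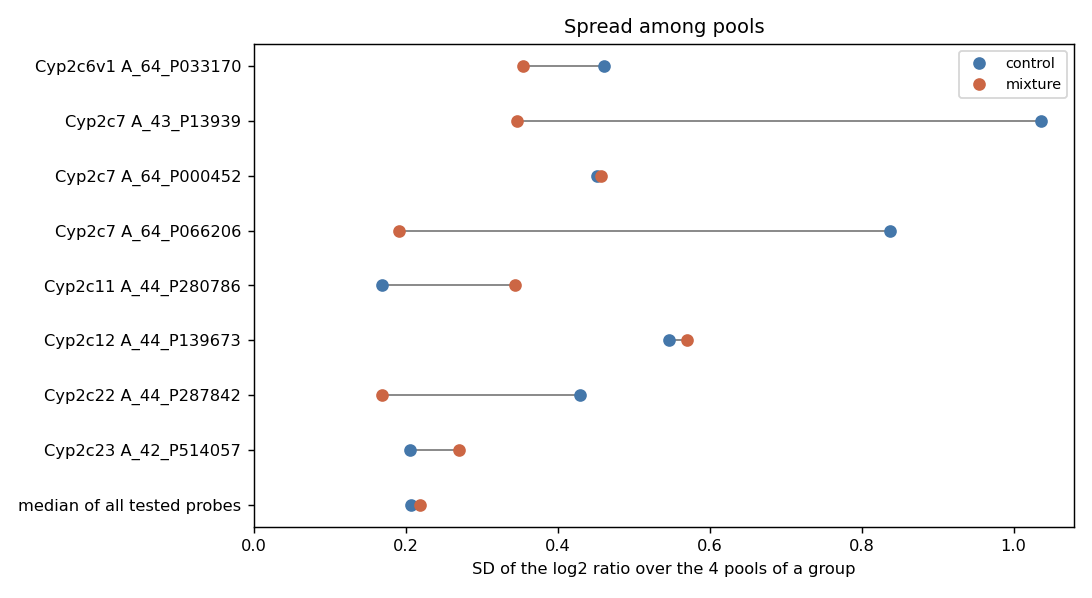
SD of the log2 ratio over the 4 control pools (blue) and the 4 mixture pools (orange) for the 8 tested probes, with the median over all 11406 tested probes on the last line. A_43_P13939 and A_64_P066206 of Cyp2c7 spread most in control, at 1.04 and 0.84, and the median probe is at 0.21 and 0.22.

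None of the 8 tested Cyp2c probes passed the test of a difference between the columns after adjustment, as no probe did (0.00%). The 3 Cyp2c7 probes, which measure 1 gene, and the Cyp2c12 probe had an unadjusted p under 0.05. That was 4 of 8 probes, against 5.02% of all tested probes. Across the 8 arrays the 3 Cyp2c7 probes moved together, with Pearson r of 0.99 for each pair after the column means were subtracted and 0.85 to 0.98 before. The probe that represents Cyp2c7, A_43_P13939, had r of 0.82 with Cyp2c12, 0.74 with Cyp2c11 and 0.60 with Cyp2c6v1, and of -0.21 with Cyp2c22 and -0.38 with Cyp2c23. These correlations are descriptions over 8 arrays that also share the group difference. Cyp2c transcripts are alike in sequence and probe sequences were not used here, so signal shared between close members cannot be told apart. In whole liver, more cells of a type and more RNA per cell cannot be told apart either.

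The genes most like each member over the 8 arrays, among 6932 other named genes and with column means subtracted, were Nadk2 (r = 0.99) and Nat8f2 (0.97) for Cyp2c6v1, and Nckap1 (0.98) and Hebp2 (0.97) for Cyp2c7. For Cyp2c11 they were Mtpn and Maged2 (0.96 each), for Cyp2c12 Trappc9 and Abhd10 (0.98 each), for Cyp2c22 Isg20 and Exoc6b (0.98 each), and for Cyp2c23 Mrpl51 (0.97) and Alcam (0.95). Each is the highest of many r values over 8 arrays and is given as a description.

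The electron partners of P450 enzymes were all measured, 6 of 6, with 4 higher and 2 lower means in mixture, against 46.9% higher over all tested probes. None passed without slide column in the fit, where 1 of the 6 had an unadjusted p under 0.05 (against 1.52%), and that gene, Cyb5a, passed with it (against 0.0789%). Cyb5a, cytochrome b5, averaged 4.26 ± 0.29 (SD, n = 4) as a log2 ratio in control livers and 4.80 ± 0.33 in mixture livers, a difference of 0.54 (SE 0.20) with an adjusted p of 1.00 and of 0.0203 with slide column fitted. It was 0.57 higher within column 1 and 0.50 within column 2. With slide column fitted the call was kept only without mixture replicate 2 or control replicate 7 among the 8 single arrays, and was lost without mixture replicates 1 and 4 (0.52, adjusted p = 0.229). Pgrmc1, a haem-binding partner of P450 enzymes, differed by 0.37 (SE 0.17), and Cyb5b by 0.079.

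Of 19 regulators of Cyp2c transcription 14 were tested, and none passed in either direction with or without slide column, with 6 higher and 8 lower means and none at an unadjusted p under 0.05. Those with the smallest p were Onecut1, a liver transcription factor (-0.45, SE 0.29), Nr1i2, which encodes PXR (-0.11, SE 0.11), and Foxa2 (-0.096, SE 0.18). The growth-hormone-dependent genes of the adult sexes did not pass either, nor did any reach an unadjusted p under 0.05. Of 3 male genes 2 were tested, Cyp3a2 at -0.24 and Cyp3a18 at -0.060, and of 6 female genes 3, Srd5a1 at -0.082, Prlr at -0.042 and Cyp2a1 at 0.013. Cyp2a1, like Cyp2c6v1, was higher in both channels, by 0.43 in Cy5 and 0.39 in Cy3.

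In retinoid oxidation, where Cyp2c7 and Cyp2c22 also act, 6 of 14 genes were tested and none passed, 1 of them having an unadjusted p under 0.05, against 1.52% of all tested probes. Aldh1a1, which makes retinoic acid from retinal, averaged 3.82 ± 0.78 (SD, n = 4) in control livers and 4.96 ± 0.40 in mixture livers as log2 ratios, without overlap, a difference of 1.14 (SE 0.37, unadjusted p = 0.0136, adjusted p = 1.00). It was 0.53 within column 1 and 1.75 within column 2, and 1.15 without mixture replicates 1 and 4. Dhrs3, a retinal reductase, differed by 0.20 and Crabp2 by -0.16. Of 12 eicosanoid epoxygenase and hydroxylase genes, the company of Cyp2c23, 10 were tested with 3 higher and 7 lower means, none at an unadjusted p under 0.05. Cyp4a3 differed by -0.33, Cyp2j3 by -0.37 and Cyp2j4 by -0.12. The 10 hepatocyte markers all had lower mean ratios in mixture, with a median difference of -0.14, where 46.9% of all tested probes were higher; in Cy5 alone Ttr (0.045), Serpina1 (0.060) and Alb (0.023) had higher means. None of the 10 had an unadjusted p under 0.05 in the ratio. Nor had any tested marker of Kupffer cells (8), bile duct (3), endothelium (4), stellate cells (6), erythroid cells (3), lymphocytes (2) or gut (1).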

How the data were processed

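Labelling started from 200 ng of RNA, per the labels' protocols, with liver pools in Cy5 and reference RNA in Cy3 on all 8 arrays, part of a study of 72 arrays, the rest not analysed here. The deposited intensity values (median signal and background of each channel) and well-above-background and outlier marks were made, per the file headers, with version 11.0.1.1 of Agilent Feature Extraction. The deposited value table held log2 ratios made by steps not given in the sources used here, with column medians of -0.0389 to -0.0326. It followed loess-normalised log2 ratios without background correction (r of 0.997 to 0.998 per array), which settled its scale and direction. Its centring is unknown. It was used as an alternative setting.

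Background was corrected with normexp (offset 50, limma 3.58.1, R 4.3.3), arrays were normalised with loess with control spots at no weight, spots marked as outliers dropped, and a probe's spots averaged. Cy5 and Cy3 alone were quantile-normalised between arrays. Accessions of 18005 probes matched a RefSeq table (GRCr8, names only). The 11406 probes that passed the rule on Cy5 signal (3 arrays of a group well above background) were fitted with lmFit and eBayes, two-sided, with Benjamini-Hochberg adjustment at 0.05. Adjusted p-values are limma's. The fit was tested on simulated data. A gene with several probes was represented in lists and likeness by its brightest one. All members were named, with the 3 genes of smallest unadjusted p from each list and the 2 most alike genes of each member. Aside from the members, 9 further Cyp2c genes were looked for and none had a named probe. Members and lists were chosen with earlier results of these data known. The design named mean or median signals, and median signals were used. Slide columns were read as the first number of the position suffix in the file headers and slide rows as the second, names that are a reading of that suffix. Promoter letters came from RefSeq (GRCr8).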

Additional observations from a re-analysis of the deposited data

Results flagged for a closer look

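Among 54 groups of 4 arrays looked at for a single stray array, 2 stood out, and chance gives about 1 in 20 groups. In Cy5 alone, probe A_64_P000452 of Cyp2c7 had mixture replicate 1 at 10.65 and the other 3 mixture pools between 9.43 and 9.60, so that the gap was 0.860 of the group's range. In Cy5 alone, Cyp2c12 had control replicate 7 at 10.57 and the other 3 control pools between 9.59 and 9.70, a gap of 0.887 of the range. Mixture replicate 1 is an array with signal of exocrine pancreas markers, whose part was not tested.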

How the results depend on the processing

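With 4 arrays a group, the number of arrays limits precision, and signal over background limits Cyp2c11 and Cyp2c13. The count of Cyp2c probes past the threshold was 0 in each measure. In the log ratio it was 2 with slide column fitted and 1 within column 2, and over single arrays left out it ran from 0 to 0 without and from 0 to 3 with slide column fitted. In Cy5 alone it was 2 with slide column fitted, 1 within column 1 and 2 within column 2, and from 0 to 0 and, as an alternative chosen after seeing the data, from 1 to 4 over single arrays left out. It was 4 without mixture replicate 1 and 1 without any other array. In Cy3 it was 1 without mixture replicate 2 and 0 without any other array, a range of 0 to 1. Over all 11406 tested probes, the log ratio count was 1 and rose to 9 with slide column fitted. It was 1 within column 2 and ran from 1 to 16 over single arrays left out with slide column fitted. In Cy5 alone the count was 1 and rose to 17 with slide column fitted, and it was 4 within column 1 and 12 within column 2. With slide column fitted and single arrays left out it ran from 5 to 18 in Cy5, with 14 without mixture replicate 1. In Cy3 it was 4 without mixture replicate 2. Leaving out mixture replicates 1 and 4 together, also chosen after seeing the data, gave 0 member calls in the log ratio and Cy5, with or without slide column fitted.

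Signs turned for Cyp2c6v1 in the log ratio with processed signals (-0.23), for Cyp2c12 within column 1 (-0.029 in the log ratio, -0.093 in Cy5), and for Cyp2c22 within column 2 (0.099 and 0.11). With 1 array left out, Cyp2c12 in Cy3 ran from -0.0079 to 0.018 and Cyp2c22 in Cy3 from -0.0091 to 0.031, and Cyp2c23 in Cy5 with slide column fitted from -0.20 to 0.017. The cause was not tested. Cyp2c7 kept its direction in every alternative tried, from 1.03 to 2.58 over its 3 probes in the log ratio and from 0.77 to 2.53 in Cy5. With slide row fitted, 0 member probes passed in the log ratio or in Cy5, as did 0 of all probes, with adjusted p of 1.00 for each tested member probe. Leaving out arrays for Cyp1a1, Cyb5a and Aldh1a1 was also chosen after seeing the data. No paired analysis was possible because control and mixture arrays share no replicate number; the slide row fit above pairs arrays by position only.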
